A study of Rattus norvegicus with 24 samples.

Results

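The kidneys of ET3x1 rats were compared with those of S rats, array by array, over every probe set that is not a manufacturer's control. The comparison took 8 of the 12 RNA pools of the study, 20 of its 32 rats and 16 of its 24 arrays. S is the inbred Dahl salt-sensitive rat (SS/jr). ET3x1 is a congenic substrain, an S rat that carries chromosome segments of the Dahl salt-resistant strain around the endothelin 3 locus. All rats, S included, were males that ate 0.4% NaCl until 39 to 41 days of age and 2% NaCl for the next 28 days, and the left kidney was taken at 67 to 69 days. S pools A, B, C and D each joined the RNA of 2 rats, and ET3x1 pools E, F, G and H each joined that of 3 rats. The remaining group, ET3x2, is another congenic substrain of the same kind with pools I, J, K and L of 3 rats each. ET3x2 serves here as a second reference, and its pools also entered the fit that gave the spread. A pool averages its rats, so rat-to-rat spread is only partly visible, and no single animal can be described.

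A congenic strain keeps the genome of the recipient except for 1 marked stretch that was bred in from a donor and the linked chromosome on both sides of it. A transcript that differs between such a strain and its recipient can lie inside the stretch, or elsewhere and respond to it, or lie at a place where the inbred stocks have come to differ. Endothelin 3 (Edn3) encodes a short peptide that acts on the endothelin receptors, which govern salt and water transport in the collecting duct and the tone of kidney vessels. Edn3 itself was not analysed here, since no probe set of either array was named for it. An Affymetrix probe set reads mostly the 3' end of a transcript, so probe sets of 1 gene can report different transcript ends.

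The unit is the deposited signal, taken as log2, and a difference of 1 is a doubling of signal. Of 31142 probe sets, 21799 lay above the filter on dim signal (a mean over all pools at or above the 30th percentile of the array), and they stood for 11218 genes. Column medians ran from 8.49 to 8.60 on array RAE230A and from 7.55 to 7.62 on array RAE230B. Arrays have no read depth, and 4 pools a group set the precision. A principal component analysis placed S pools A and B beside ET3x2 pool J at the high end of its leading axis and ET3x1 pool G at the low end (31.3% of variance for RAE230A, 36.7% for RAE230B). The actin 5' minus 3' control signal on RAE230A, which falls as RNA or its copies become shorter, was −1.27, −1.27, −1.81 and −2.10 in S pools A to D and −1.98, −1.66, −2.02 and −1.69 in ET3x1 pools E to H. The ranges of both groups overlapped. Of kidney cell markers, 17 of 20 proximal tubule genes (18 on the arrays) and 13 of 18 thick limb and distal tubule genes (15) lay above the filter. So did 9 of 10 principal cell genes (10 on the arrays) and 7 of 14 podocyte genes (10). The filter passes most probe sets by its setting (21799 of 31142), so these counts do not by themselves show that a cell type was present. The 100 probe sets that both arrays carry gave a repeat measurement of the same pools. Their ET3x1 minus S difference disagreed between arrays by a median of 0.063, and 97.0% of them disagreed by under 0.2.

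In ET3x1 kidneys 94 probe sets were higher and 2 were lower than in S. The higher ones included probe sets of the splicing gene Luc7l3, the histone demethylase gene Kdm5a, the translation factor gene Eif5b, the endosome gene Eea1, the junction gene Cgnl1 and the antibody chain gene Jchain. A probe set was called at an adjusted p under 0.05 (limma with Benjamini-Hochberg adjustment within each array), and 96 of 21799 passed, which is 0.44% (0.431% for higher alone). At an unadjusted p under 0.05 there were 2583. The fit took its spread from all pools, ET3x2 included. With the 8 pools of S and ET3x1 fitted alone the count was 51. That fit kept 46 of the 96 calls and lost 50. The count was 164 with estimated array weights and 215 with the actin 5' minus 3' signal as a covariate. The called probe sets stood for 65 of the 11218 genes, or 0.579%. On RAE230A 23 of 11106 probe sets were called (0.207%), and on RAE230B 73 of 10693 (0.683%). RAE230B thus held 76.0% of the called and 49.1% of the tested probe sets. The size of the called differences had a median of 0.69 and ran from 0.33 to 4.95, and 21 were at 1 or more. The groups did not overlap in any of the 96, against 6.4% of all tested probe sets (1395). Over all tested probe sets the median difference was −0.0047 and 48.4% were positive. Column medians lay close together on each array, so a median difference near 0 was largely set by that level. It does not bear on why most calls were higher.

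**Figure D1:**
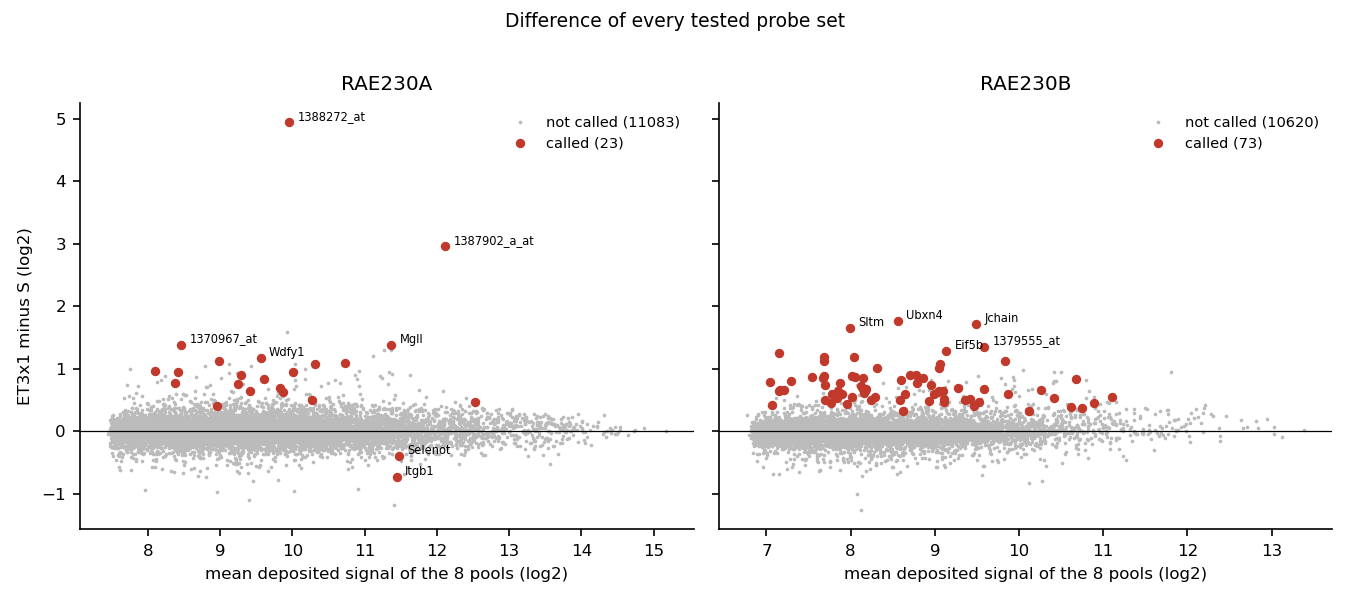
Difference between ET3x1 and S (log2, y axis) against the mean deposited signal of the 8 pools (log2, x axis) for each tested probe set, by array. Called probe sets are red, and the 5 with the highest difference on each array and those below 0 are named. Calls lie above 0 at all but 2 points, and 1388272_at stands at 4.95.

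How far a call rested on 1 pool was measured by fitting again without each of the 8 pools. Of the 96 calls, 37 were kept in all 8 of these fits, 17 were lost in 1 to 3 of them and 42 in 4 or more. Leaving out ET3x1 pool E ended 56 calls and left 41 in all, and leaving out S pool C ended 44 and left 57. The 37 belonged to 23 genes with a symbol (25 probe sets), to 10 probe sets without a symbol and to 2 with several. These 37 are given below with the signal of every pool, and the others mostly by their difference. Each of the others lost its call in at least 1 of the 8 fits, also where no pool is named. Gene names, promoters and chromosomes are those of the rat RefSeq annotation GRCr8.

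**Figure D2:**
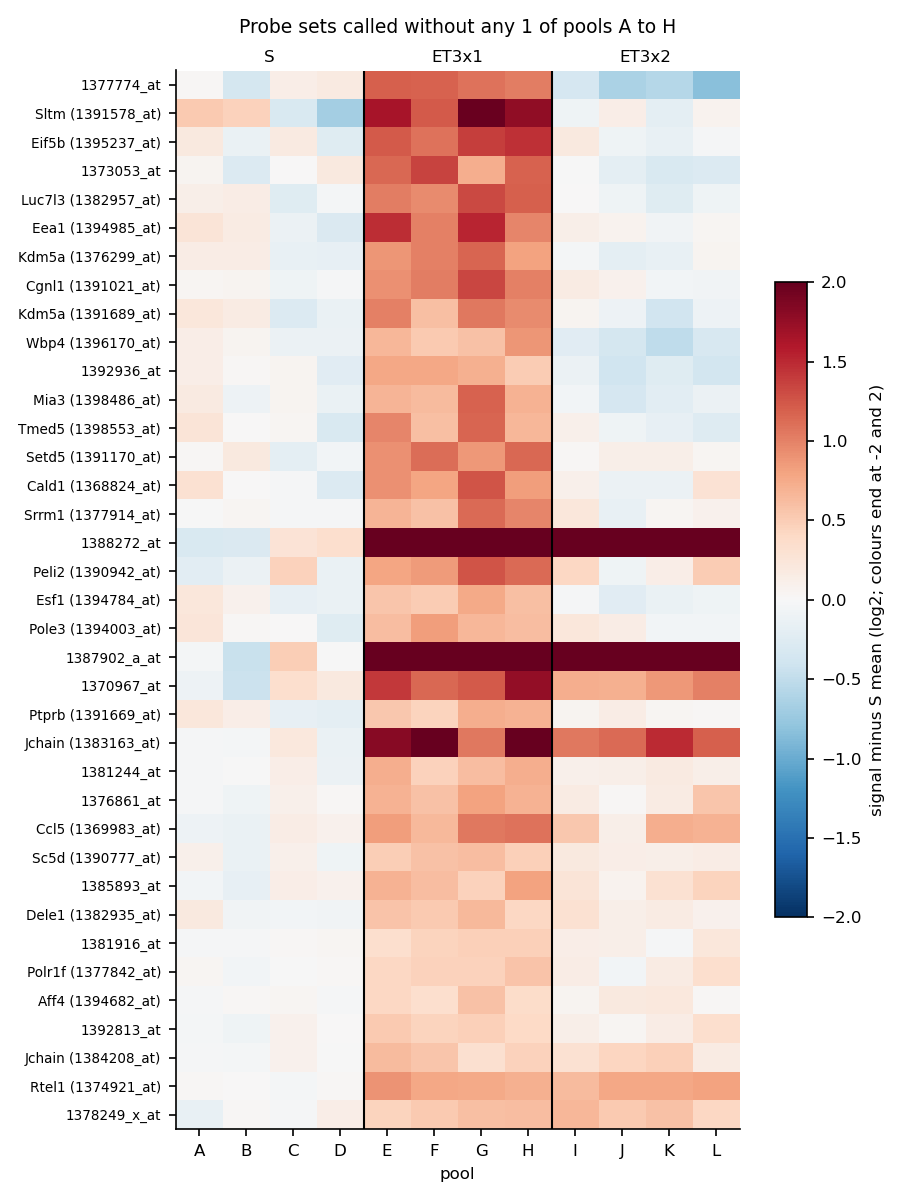
Signal of the 37 probe sets called in all 8 fits, 1 row each, in every pool (columns A to L), as the difference from the S mean (log2, colour). Rows are ordered by the ET3x1 minus ET3x2 difference. In the upper rows (Sltm, Eif5b, Luc7l3) pools E to H are red and pools I to L are pale, and in the lowest rows (Rtel1, 1378249_x_at) both congenic strains are red.

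The promoters of 4 of the leading genes are shown because the calls join genes of different kinds, and because Rtel1 is the only called gene beyond Edn3 on chromosome 3. Each run is 300 bases, from 250 before to 50 after the annotated start, 5′ to 3′ on the gene's strand, from the RefSeq promoters of GRCr8. Capitals mark matches, on either strand, to 4 plain motifs: TATAAA for the TATA box, GGGCGG for the GC box, CCGGAAG for the core of ETS factor sites, and CCAAT. None of the 4 contains another.
Luc7l3 (chr10:79773380-79773679, minus strand): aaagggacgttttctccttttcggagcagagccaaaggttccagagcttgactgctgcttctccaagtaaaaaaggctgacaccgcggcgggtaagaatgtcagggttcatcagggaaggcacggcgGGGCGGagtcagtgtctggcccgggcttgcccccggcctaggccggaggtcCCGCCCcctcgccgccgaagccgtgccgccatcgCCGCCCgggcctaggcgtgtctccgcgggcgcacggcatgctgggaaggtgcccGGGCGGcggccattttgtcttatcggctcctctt
Kdm5a (chr4:155237874-155238173, plus strand): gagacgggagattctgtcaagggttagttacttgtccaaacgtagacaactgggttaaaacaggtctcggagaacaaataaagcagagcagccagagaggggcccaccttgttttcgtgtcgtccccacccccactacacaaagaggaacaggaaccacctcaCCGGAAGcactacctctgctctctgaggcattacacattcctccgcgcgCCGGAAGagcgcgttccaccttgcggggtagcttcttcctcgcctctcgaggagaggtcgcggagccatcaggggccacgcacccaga
Rtel1 (chr3:188807748-188808047, plus strand): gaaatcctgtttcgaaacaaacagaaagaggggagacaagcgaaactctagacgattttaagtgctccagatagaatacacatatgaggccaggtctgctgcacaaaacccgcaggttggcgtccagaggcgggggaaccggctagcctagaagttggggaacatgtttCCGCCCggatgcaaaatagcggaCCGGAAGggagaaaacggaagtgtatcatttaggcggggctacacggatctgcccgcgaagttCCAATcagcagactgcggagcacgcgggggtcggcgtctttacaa
Jchain (chr14:19822726-19823025, plus strand): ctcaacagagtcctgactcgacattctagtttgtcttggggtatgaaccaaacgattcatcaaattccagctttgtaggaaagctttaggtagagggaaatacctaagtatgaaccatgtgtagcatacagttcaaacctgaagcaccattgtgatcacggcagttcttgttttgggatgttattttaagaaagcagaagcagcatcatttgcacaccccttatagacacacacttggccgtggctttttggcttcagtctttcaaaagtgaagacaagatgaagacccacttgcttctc
The Luc7l3 promoter holds 4 GC boxes and 29 CpG dinucleotides, and that of Kdm5a holds 2 ETS cores and 18 CpG. The Rtel1 promoter has 1 GC box, 1 ETS core and 1 CCAAT box. That of Jchain, a gene of antibody-secreting cells, has none of the 4 motifs, 4 CpG and 42.3% G+C, against a median of 60.7% in tested genes. Promoters were matched for 54 of the 65 called genes and for 9313 tested genes. A GC box was found in 66.7% of the called (36) and 61.1% of the tested genes, and in 34.9% of all 27457 promoters. An ETS core was found in 16.7%, 16.9% and 9.22%, a CCAAT box in 33.3%, 37.4% and 37.7%, and a TATA box in 11.1% (6 genes), 7.30% and 14.3%. The called genes thus had shares close to those of the tested genes. A match is a description of the letters and not a measured binding site.

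Of the genes of antibody-secreting and T cells, Jchain and Ccl5 were called. Jchain encodes the chain that joins the units of secreted IgA and IgM, and its probe set 1383163_at read 8.60, 8.59, 8.84 and 8.50 in S pools A to D and 10.45, 10.63, 9.68 and 10.64 in ET3x1 pools E to H. Every ET3x1 pool lay above every S pool, with pool G the lowest of its group. Jchain rose by 1.72 (SE 0.18, 3.28-fold, adjusted p = 0.000516, limma, n = 4 pools a group). The second Jchain probe set, 1384208_at, read 7.97, 7.96, 8.08 and 7.99 in S and 8.63, 8.55, 8.32 and 8.46 in ET3x1 and rose by 0.50 (SE 0.079, adjusted p = 0.0104). Both tested probe sets of Jchain were called, which held for no other gene with more than 1. In ET3x2 the first read 9.69, 9.76, 10.12 and 9.82, and its ET3x1 minus ET3x2 difference of 0.50 did not pass (adjusted p = 0.273). In RNA of whole kidneys, more cells of a type and more RNA per cell cannot be told apart.

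Ccl5 encodes a chemokine released by T cells, NK cells and stimulated tubule cells. It read 8.74, 8.70, 8.99 and 8.93 in S and 9.68, 9.49, 9.89 and 9.93 in ET3x1, with no overlap. Ccl5 rose by 0.91 (SE 0.13, 1.88-fold, adjusted p = 0.00942). The ET3x2 pools, at 9.38, 8.95, 9.56 and 9.54, spread between the 2 groups, and the ET3x1 minus ET3x2 difference of 0.39 did not pass (adjusted p = 0.188).

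The 2 probe sets furthest from 0 have no symbol. Probe set 1388272_at read 7.17, 7.19, 7.75 and 7.81 in S and 12.60, 12.73, 11.74 and 12.64 in ET3x1, a difference of 4.95 (SE 0.24, adjusted p = 4.19e-08). Its S mean lay under the dim filter level of 7.52, so no fold is given. Probe set 1387902_a_at read 10.59, 10.19, 11.12 and 10.62 in S and 13.74, 13.57, 13.31 and 13.77 in ET3x1, a rise of 2.97 (SE 0.19, 7.83-fold, adjusted p = 7.32e-07). ET3x2 stood high as well at both, with 11.66 ± 0.44 and 13.02 ± 0.34 (SD, n = 4), and ET3x1 minus ET3x2 did not pass at either (adjusted p = 0.15 and 0.162). The same held for 1370967_at, which read 7.67, 7.34, 8.10 and 7.96 in S and 9.19, 8.92, 8.99 and 9.52 in ET3x1 and rose by 1.39 (adjusted p = 0.000629, and 0.113 against ET3x2).

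Jchain and Ccl5 were the only called genes of their marker lists. Of the immunoglobulin and plasma cell list, 9 of 23 genes were tested, 5 were positive and 4 negative, the median was 0.06, and Jchain was the 1 gene called. Sdc1, a surface proteoglycan of plasma cells and epithelia, was lowest at −0.19. Pigr stood at 0.36 and Mzb1 at 0.21 without a call (limma adjusted p = 0.276 and 0.126). At an unadjusted p under 0.05, 3 genes of this list were higher, Jchain among them, and 0 lower. The list level, a mean over its 9 genes with Jchain among them, ran from 9.10 to 9.32 in S pools and from 9.37 to 9.59 in ET3x1 pools. Without Jchain, in a comparison added after these levels were seen, the groups overlapped, at −0.20 to 0.03 in S and −0.04 to 0.09 in ET3x1 about the mean of all pools. Of 20 T and NK cell genes tested, 15 were positive (median 0.08, over all genes 0.0007) and Ccl5 alone was called, with Cd4 lowest at −0.18. Their list level, on the same scale, was −0.15 to −0.06 in S and −0.03 to 0.14 in ET3x1 with Ccl5, and overlapped without it, at −0.13 to −0.04 and −0.05 to 0.12. The part of immune cell content in the Jchain and Ccl5 differences was not tested. None of 17 macrophage genes (14 positive, median 0.08, Ccl2 0.27 to C1qb −0.16) and none of 8 MHC class II genes (7 positive, median 0.10, RT1-Bb 0.20 to RT1-Da −0.04) was called. Interferon-induced genes went the other way, with 16 of 18 negative, a median of −0.15 and no call. Irf7 was lowest at −0.54 (adjusted p = 0.315) and Irf1 highest at 0.11. S pool D carried that list: it stood 0.47 above the mean of all pools, where the other S and ET3x1 pools lay between −0.12 and 0.05, and without it the median was −0.02 with 10 of 18 negative.

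Translation was represented by Eif5b, the factor that joins the ribosomal subunits at the start codon. Its probe set 1395237_at read 8.69, 8.36, 8.67 and 8.25 in S and 9.72, 9.57, 9.87 and 9.95 in ET3x1, and every ET3x1 pool stood at least 0.88 above the highest S pool. Eif5b rose by 1.28 (SE 0.11, 2.44-fold, adjusted p = 9.9e-05), and by 1.31 against ET3x2 (adjusted p = 6.4e-05), whose pools read 8.68, 8.40, 8.34 and 8.46. The other 2 tested probe sets of Eif5b differed by 0.02 (1388947_at) and 0.20 (1396191_at), and neither was called. Of 43 initiation and elongation factors, 13 were positive and 30 negative with a median of −0.04, Eif3a was highest at 0.40 and Eif3l lowest at −0.35, and Eif5b was the 1 gene called. Aimp1, a scaffold of the tRNA synthetase complex, rose by 0.52 (adjusted p = 0.0413), and Atxn2, an RNA-binding protein that regulates translation, by 0.75 (adjusted p = 0.0417). The calls of Aimp1 and Atxn2 were each lost in 7 of the 8 fits.

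Splicing and RNA-binding genes supplied 5 calls of 65 genes tested, against 0.579% of all genes: Luc7l3, Sltm, Srrm1, Srsf11 and Rbm39. The list was chosen with earlier results of these data known, so this share is not a test. Luc7l3, a splicing factor that works with the U1 particle, read 7.24, 7.28, 6.89 and 7.09 in S and 8.16, 8.08, 8.45 and 8.32 in ET3x1, and it rose by 1.12 (SE 0.099, 2.18-fold, adjusted p = 9.9e-05). Sltm, an RNA-binding nuclear scaffold protein, read 7.69, 7.62, 6.86 and 6.48 in S, the widest S spread among the 37, and 8.81, 8.38, 9.14 and 8.93 in ET3x1. Its rise was 1.65 (SE 0.24, 3.15-fold, adjusted p = 0.00611). The S pools of Sltm split, with A and B above C and D, and still lay below every ET3x1 pool. Srrm1, a co-activator that bridges splicing factors, read 8.43, 8.48, 8.41 and 8.42 in S and 9.12, 9.03, 9.58 and 9.42 in ET3x1 and rose by 0.85 (SE 0.11, adjusted p = 0.00271). Wbp4, a spliceosome protein, read 7.96, 7.88, 7.71 and 7.70 in S and 8.48, 8.35, 8.41 and 8.71 in ET3x1 and rose by 0.67 (SE 0.09, adjusted p = 0.00387), and its second called probe set, 1384154_at, by 0.87 (adjusted p = 0.0328). Against ET3x2 the differences were 1.22 for Luc7l3, 1.68 for Sltm, 0.80 for Srrm1 and 1.02 for Wbp4, and all 4 passed (adjusted p = 4.1e-05, 0.00213, 0.00178 and 6.57e-05).

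The splicing list as a whole did not lean upward. It had 28 positive and 37 negative genes and a median of −0.02, Srrm2 was highest at 0.76 and Rbm39, at its brightest probe set, lowest at −0.50. Srsf11, a serine-arginine splicing factor, rose by 0.50 (adjusted p = 0.023) at a probe set that is not its brightest. Rbm39, a splicing co-factor, rose by 0.65 at 1379737_a_at (adjusted p = 0.0411), while its other probe sets stood at 0.40, −0.27 and −0.50 without a call. The Rbm39 call was lost in 7 of the 8 fits. Genes of ribosomal RNA synthesis and processing also stood among the 37. Esf1, a nucleolar factor for pre-rRNA processing, read 7.69, 7.55, 7.31 and 7.33 in S and 8.02, 7.98, 8.23 and 8.07 in ET3x1 and rose by 0.60 (SE 0.087, adjusted p = 0.00611). Polr1f, a subunit of RNA polymerase I, read 9.33, 9.24, 9.28 and 9.32 in S and 9.70, 9.75, 9.75 and 9.86 in ET3x1 and rose by 0.47 (SE 0.075, adjusted p = 0.0104).

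Chromatin and transcription genes followed. Setd5, a SET-domain protein of chromatin, read 7.84, 8.01, 7.62 and 7.76 in S and 8.73, 8.92, 8.67 and 8.96 in ET3x1 and rose by 1.01 (SE 0.086, 2.01-fold, adjusted p = 9.9e-05). Kdm5a, a histone H3 lysine demethylase, was called at 1 probe set on each array. On RAE230A it read 7.77, 7.77, 7.47 and 7.46 in S and 8.51, 8.63, 8.78 and 8.43 in ET3x1 and rose by 0.97 (SE 0.099, 1.96-fold, adjusted p = 0.000229). On RAE230B it read 8.56, 8.49, 8.05 and 8.20 in S and 9.34, 8.93, 9.38 and 9.28 in ET3x1 and rose by 0.91 (SE 0.13, adjusted p = 0.00611). Neither Setd5 nor Kdm5a overlapped between the groups, and ET3x1 minus ET3x2 was 0.93 for Setd5 and 1.05 and 1.04 for Kdm5a (adjusted p = 8.38e-05, 0.00016 and 0.000948). Aff4, the scaffold of the super elongation complex, read 6.83, 6.88, 6.90 and 6.83 in S and 7.27, 7.19, 7.45 and 7.22 in ET3x1 and rose by 0.43 (SE 0.067, adjusted p = 0.0103), and its probe set 1378170_at rose by 0.90 (adjusted p = 0.0132). Pole3, a histone-fold subunit of DNA polymerase epsilon, read 9.48, 9.27, 9.24 and 8.99 in S and 9.85, 10.08, 9.91 and 9.86 in ET3x1 and rose by 0.68 (SE 0.1, adjusted p = 0.00638).

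Other genes of this role were called, and each lost its call without at least 1 pool. Mllt10, a cofactor of the DOT1L histone methyltransferase, rose by 0.85, and Zbtb20, a zinc finger repressor, by 0.84. Tsc22d2 rose by 0.82, Ankrd11, a chromatin regulator, by 0.65, and Gatad2b, a subunit of the NuRD complex, by 0.66. Mecom and Tfap2b, transcription factors with roles in the kidney tubule, rose by 0.65 and 0.51. Zfp451 and Zfp329 rose by 0.67 and 0.62, and Phf20l1, a reader of methylated lysine, by 0.40. Their adjusted p-values (limma) ran from 0.0132 for Ankrd11 to 0.0464 for Phf20l1. The S mean of Zfp451, 6.83, lay under the RAE230B filter level of 6.85. The chromatin list gave 31 positive and 27 negative of 58 genes with a median of 0.01, from Baz2b at −0.21 to the cohesin loader gene Nipbl at 0.93, and Kdm5a was its 1 called gene.

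Endosome and secretory traffic genes formed a further group. Eea1, the protein that tethers early endosomes, read 6.78, 6.69, 6.41 and 6.24 in S and 8.01, 7.54, 8.06 and 7.50 in ET3x1, a rise of 1.25 (SE 0.14, adjusted p = 0.000847) from an S mean under the filter level of 6.85. Mia3, which loads collagen into vesicles at the endoplasmic reticulum, read 6.83, 6.55, 6.71 and 6.52 in S, also under that level, and 7.33, 7.28, 7.83 and 7.34 in ET3x1, a rise of 0.79 (SE 0.12, adjusted p = 0.00638). Tmed5, a cargo receptor of the early secretory path, read 7.50, 7.25, 7.29 and 6.95 in S and 8.22, 7.85, 8.41 and 7.92 in ET3x1 and rose by 0.85 (SE 0.13, 1.81-fold, adjusted p = 0.0103). None of the 3 overlapped, and all 3 were higher in ET3x1 than in ET3x2, by 1.21, 0.97 and 0.95 (adjusted p = 0.000555, 0.000708 and 0.00226). Ubxn4, which helps draw misfolded proteins out of the endoplasmic reticulum, rose by 1.76 (SE 0.3, 3.39-fold, adjusted p = 0.015), the widest difference of any named gene, and its call ended without pool C or pool E. Wdfy1, an endosomal protein that binds phosphoinositides, rose by 1.17 (adjusted p = 0.0325), and its call was lost without any 1 of pools B to H.

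At smaller differences, the lysosomal membrane protein gene Lamp2 rose by 0.47, the membrane protease gene Sppl2a by 0.78, Wasl, which starts branched actin on vesicles, by 0.60, and the ARF exchange factor gene Gbf1 by 0.49 (adjusted p from 0.0322 to 0.0394). Gapvd1, an exchange factor for Rab5, rose by 0.33 (adjusted p = 0.0413). The calls of Lamp2, Wasl and Gbf1 were each lost in 7 of the 8 fits, and those of Sppl2a and Gapvd1 in 6. The early endosome and Rab list was even, with 20 genes positive and 20 negative, a median of 0.00, Vps4b lowest at −0.28 and Wdfy1 highest. Its 2 called genes were Eea1 and Wdfy1. In the endoplasmic reticulum stress list 14 of 30 genes were positive, with Selenos highest at 0.54 without a call (median −0.03), and its calls were Ubxn4, higher, and Selenot, lower.

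Genes of junctions and the cell skeleton included Cgnl1, paracingulin, a protein of the tight and adherens junctions of tubule cells. Cgnl1 read 8.57, 8.59, 8.45 and 8.50 in S and 9.44, 9.56, 9.87 and 9.54 in ET3x1 and rose by 1.07 (SE 0.088, 2.1-fold, adjusted p = 9.9e-05). Cald1, the actin-binding protein caldesmon, read 9.84, 9.55, 9.51 and 9.26 in S and 10.45, 10.33, 10.79 and 10.37 in ET3x1 and rose by 0.95 (SE 0.13, 1.93-fold, adjusted p = 0.00719). Both stood apart from S in every pool, and both were higher than in ET3x2 (Cgnl1 by 1.04, adjusted p = 5.23e-05, and Cald1 by 0.91, adjusted p = 0.00469). Ptprb, a tyrosine phosphatase of endothelial cells, read 8.91, 8.82, 8.53 and 8.49 in S and 9.23, 9.13, 9.41 and 9.39 in ET3x1 and rose by 0.60 (SE 0.096, adjusted p = 0.0104). Arhgap5 and Rnd3 rose by 1.19 and 0.78 (adjusted p = 0.013 and 0.0115), and both calls ended without pool E. Microtubule genes Kif5c, a kinesin, and Eml4 rose by 0.81 and 0.64, the angiogenic factor gene Aggf1 by 0.50, and Pakap by 0.51 (adjusted p = 0.0194, 0.0312, 0.0349 and 0.0231). The S mean of Eml4, 6.82, lay under the RAE230B filter level of 6.85. Its groups were 0.05 apart, and its call was lost in 6 of the 8 fits.

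The 2 genes called lower were Itgb1 and Selenot. Itgb1 encodes the beta 1 chain that most kidney integrins share. It read 11.87, 11.89, 11.77 and 11.72 in S and 11.13, 11.06, 10.90 and 11.25 in ET3x1 and fell by 0.73 (SE 0.11, adjusted p = 0.0173), with no overlap. The call was lost without any 1 of pools A, B, E, F and G, and the ET3x2 pools, at 11.27, 11.86, 11.61 and 11.39, covered the space between (ET3x1 minus ET3x2 −0.45, adjusted p = 0.0847). The second Itgb1 probe set, 1387346_at, stood at −1.10 (SE 0.32, adjusted p = 0.19), the lowest of all other probe sets of called genes. Selenot, a selenoprotein of the endoplasmic reticulum, read 11.70, 11.66, 11.66 and 11.63 in S and 11.31, 11.24, 11.19 and 11.35 in ET3x1 and fell by 0.39 (SE 0.072, adjusted p = 0.0393). Leaving out any 1 of the 8 pools ended the Selenot call (highest adjusted p 0.167). The same held for 2 higher calls, C13h1orf21 and Phf20l1 (highest limma adjusted p 0.105 and 0.119). Among 22 integrins and partners 11 were positive and 11 negative, with Itga1 highest at 0.50 (adjusted p = 0.291) and Itgb1 the 1 called.

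**Figure D3:**
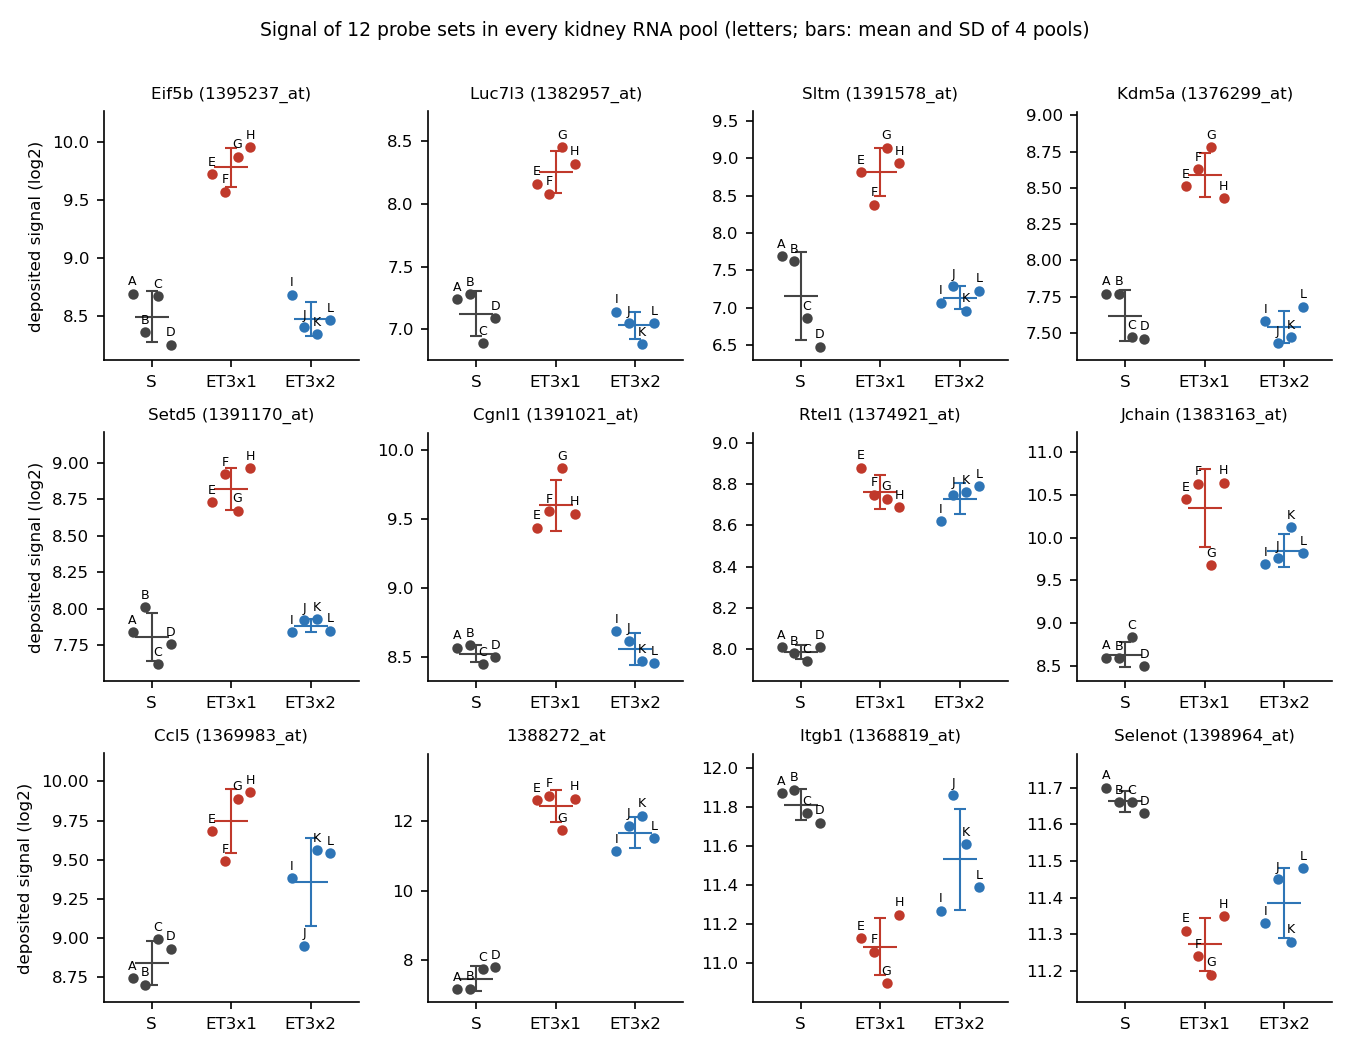
Deposited signal (log2, y axis) of 12 probe sets in each pool (points with the pool letter) of the 3 strains (x axis), with mean and SD of 4 pools. The y axes differ and do not start at 0. Eif5b, Luc7l3, Sltm, Kdm5a, Setd5 and Cgnl1 are high in ET3x1 alone, Rtel1, Jchain and 1388272_at in both congenic strains, and Itgb1 and Selenot are lower in ET3x1 than in S.

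Among metabolic genes, Sc5d, the sterol desaturase of late cholesterol synthesis, read 8.12, 7.89, 8.12 and 7.93 in S and 8.51, 8.60, 8.64 and 8.49 in ET3x1 and rose by 0.54 (SE 0.065, 1.46-fold, adjusted p = 0.00137), and by 0.39 against ET3x2 (adjusted p = 0.00675). Over the cholesterol list, with Sc5d at its brightest probe set (1389111_at, −0.10), 8 of 20 genes were positive, the median was −0.03, Idi1 was highest at 0.29 and Fdft1 lowest at −0.19, and none but Sc5d was called. Mgll, monoglyceride lipase, which breaks down the endocannabinoid 2-arachidonoylglycerol, read 10.96, 11.11, 10.59 and 10.06 in S and 12.03, 12.16, 12.32 and 11.73 in ET3x1 at 1370831_at and rose by 1.38 (SE 0.22, 2.6-fold, adjusted p = 0.02). Its call ended without any 1 of pools C, E, F and G, and its brightest probe set, 1388644_at, stood at 0.00. Of the 7 endocannabinoid genes 6 were negative with a median of −0.02, and Abhd6 was lowest at −0.12. Dele1, a mitochondrial stress signal protein, read 10.34, 10.08, 10.09 and 10.08 in S and 10.72, 10.67, 10.80 and 10.56 in ET3x1 and rose by 0.54 (SE 0.08, adjusted p = 0.00638). The mitochondrial gene Opa3 rose by 0.63, the thymidylate kinase gene Dtymk by 0.66, and Afmid, an enzyme of tryptophan breakdown, by 0.60 (adjusted p = 0.0247, 0.0245 and 0.0317).

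Genes of ubiquitin and kinase signalling completed the named set. Peli2, a ubiquitin ligase of Toll-like receptor signalling, read 8.33, 8.43, 9.0 and 8.40 in S and 9.33, 9.39, 9.80 and 9.68 in ET3x1 and rose by 1.01 (SE 0.16, 2.01-fold, adjusted p = 0.0112). Traf6, a ligase of the same pathway, rose by 0.53, the giant ligase gene Herc1 by 0.89 and the deubiquitinase gene Usp7 by 0.39 (adjusted p = 0.0317, 0.0317 and 0.0349). Csnk2a1, a catalytic subunit of casein kinase 2, rose by 1.20 (SE 0.2, 2.29-fold, adjusted p = 0.0135), and its call ended without pool E. Steep1, a factor for STING transport, rose by 0.60 (adjusted p = 0.0294). RGD1311745, C13h1orf21 and Dnajb6-ps10, named in the annotation as a pseudogene copy whose probe set could share signal with its parent gene, rose by 0.50, 0.41 and 0.38 (adjusted p = 0.0325, 0.0393 and 0.0328).

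Among the lists of tubule segments and blood pressure systems 1 gene was called. Atp6v1b1, the proton pump subunit of intercalated cells, rose by 0.33 (SE 0.069, adjusted p = 0.0483), the smallest of the higher calls together with Gapvd1, and the call held only without pool G among the 8 fits. Its list had 12 of 17 genes positive, a median of 0.05 and Atp6v0d1 lowest at −0.19. No gene was called among 17 proximal tubule genes (Slc13a3 0.22 to Slc13a1 −0.29, median −0.07), 13 thick limb and distal tubule genes (Calb1 0.20 to Klhl3 −0.10, median 0.02), 9 principal cell genes (Gata3 0.10 to Avpr2 −0.21) or 7 podocyte genes (Wt1 0.10 to Actn4 −0.13). The same held for the blood pressure systems: 16 mineralocorticoid and sodium channel genes (Klf9 0.45 to Tsc22d3 −0.40), 7 renin-angiotensin genes (Agtr1a 0.07 to Agt −0.20), 11 sodium pump and adducin genes (Fxyd2 0.20 to Sik1 −0.24) and 4 endothelin genes (Ece2 0.04 to Mme −0.38). Mme, neprilysin, which degrades endothelins and natriuretic peptides, had an adjusted p of 0.149. The endothelin list was 1 of 3 of the 33 lists, with the plasma cell and T cell lists, whose levels did not overlap between S and ET3x1 pools (0.00 to 0.08 against −0.06 to −0.02 about the mean of all pools), and without Mme it overlapped (−0.07 to 0.02 against −0.04 to 0.02). Tubular injury genes (16, Lgals3 0.16 to Clu −0.32) and circadian clock genes (19, Rora 0.35 to Dbp −0.35) held no call either. At these sizes 4 pools a group did not separate the strains, which does not show that the genes were equal.

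Several lists of housekeeping genes lay to one side of 0 with no gene called. Of 55 mitochondrial respiratory chain genes, 49 were positive with a median of 0.15, from Atp5f1a at −0.17 to Cox5a at 0.34 (adjusted p = 0.258). Of 39 cytosolic ribosomal protein genes, 32 were positive with a median of 0.13, from Rpl4 at −0.20 to Rpl12 at 0.36 (adjusted p = 0.263), and of 30 proteasome genes 21 were positive with a median of 0.09 (Psmc3 −0.28 to Psmd1 0.32). Over all 11218 genes 50.2% were positive and the median was 0.0007. The respiratory chain and ribosomal levels were lowest in pools A, B and J. The respiratory chain mean stood at −0.18 and −0.28 in A and B, between 0.00 and 0.12 in pools C to H, and at −0.14 in J. Without pools A, B and J the medians were 0.02 (31 of 55 positive) and 0.04 (25 of 39 positive). Pools A and B were the lowest S pools of both lists, so leaving them out lowers the ET3x1 minus S difference by construction. Pools A, B and J also had the highest actin 5' minus 3' signal on RAE230A, and with that signal as a covariate both medians were 0.07. Extracellular matrix genes showed the mirror pattern, with 21 of 29 negative and a median of −0.10 (Col1a1 −0.40, adjusted p = 0.271, to Mmp14 0.40). Without pools A, B and J their median was 0.01 and 16 of 29 were positive, and with the actin covariate it was −0.04. Here A and B were the highest S pools, so leaving them out raises the difference by construction. The part of RNA length in the differences of these lists was not tested.

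**Figure D4:**
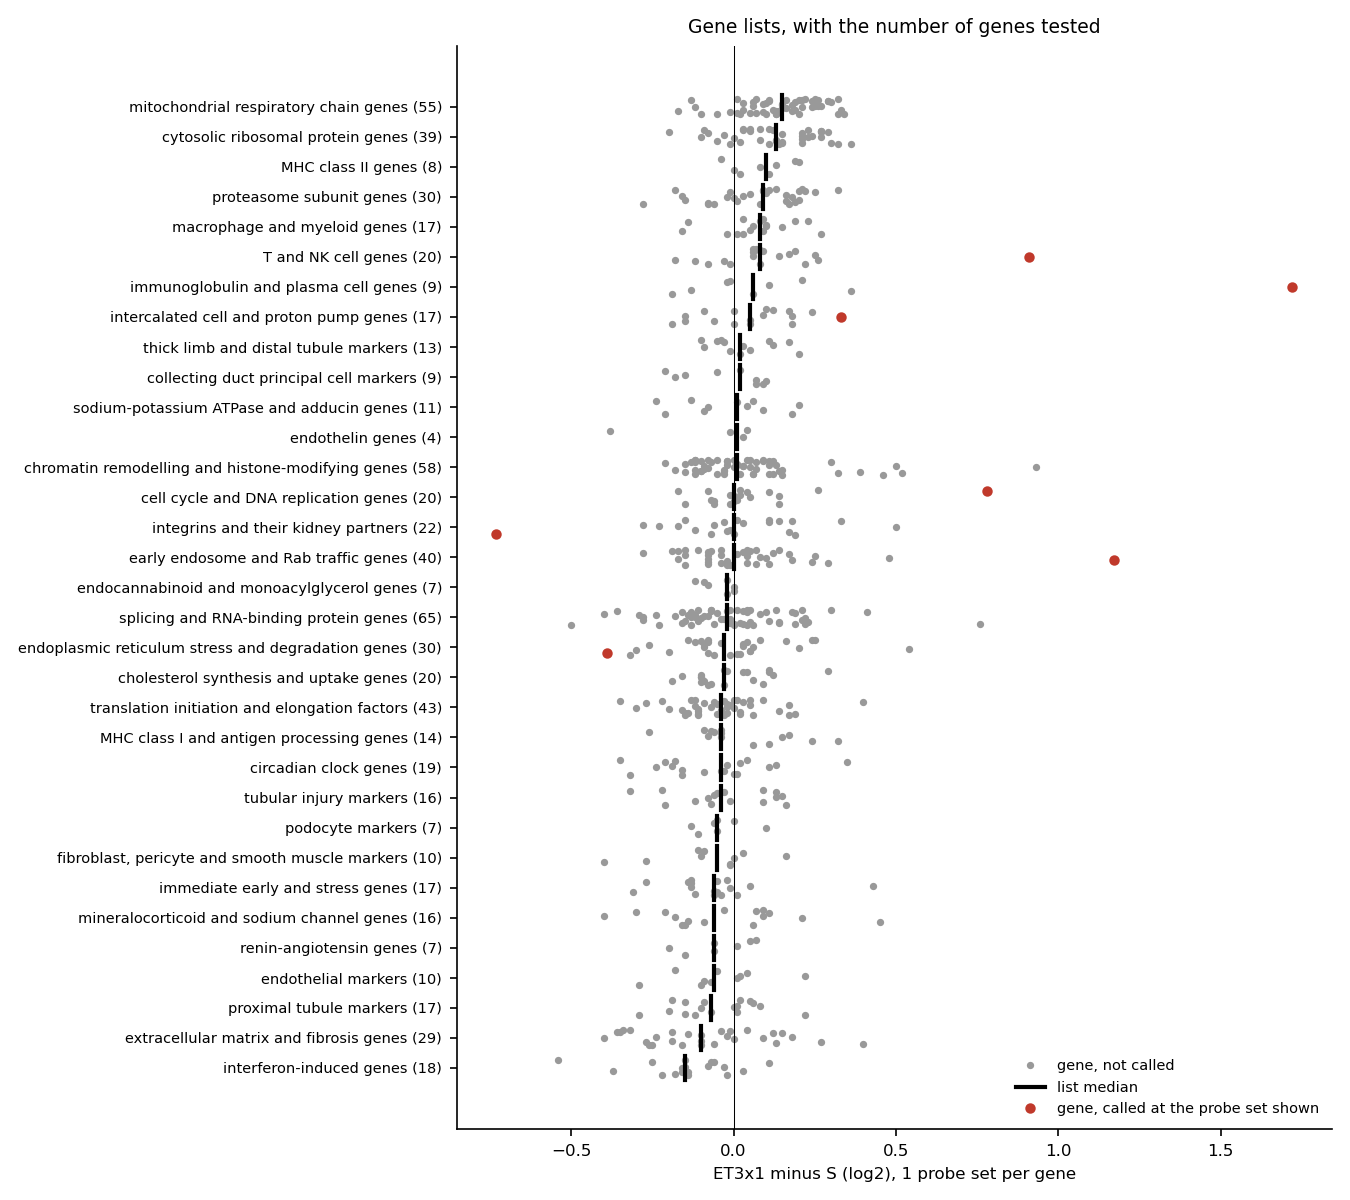
ET3x1 minus S difference (log2, x axis) of each gene (points) in 33 lists (rows, with the number of genes tested), and each list's median (black bar). Each gene has 1 probe set, its brightest, from RAE230A where it is on both arrays. Called genes at that probe set are red. Medians lie between −0.15 (interferon-induced genes) and 0.15 (respiratory chain genes), and each red point is the highest or the lowest of its list.

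Called genes were spread over lists rather than filling any. Of 703 distinct list genes tested, 18 were called, in 12 of the 33 lists, against 65 of all 11218 genes (0.579%). The lists were chosen with earlier results of these data known, so these shares cannot be compared as a test. Only 24 of the 11218 genes (0.214%) were called at their list probe set, while 65 were called at any. The list probe set is the brightest, but from RAE230A where a gene is on both arrays. RAE230B held 76.0% of the called probe sets, so this preference bears on the gap, and its part was not tested. The remaining probe sets of the called genes bear on this. Of the 65 genes, 55 had more than 1 tested probe set. That share was not counted over all tested genes, and a gene with more probe sets has more chances of a call. The 86 probe sets of called genes that were not called had a median difference of 0.03, with 47 positive and 34 negative. Of these, 64 lay within 0.2 of 0. The 86 were set apart by not being called, which favours small differences. The share within 0.2 of 0 was not counted over all tested probe sets. Sltm stood at 1.65 in the called probe set and at −0.07 and −0.02 in the others, Setd5 at 1.01 against 0.07, −0.03 and −0.07, and Cgnl1 at 1.07 against −0.09. Eea1 stood at 1.25 against 0.08, Luc7l3 at 1.12 against 0.21 and 0.34, and Ubxn4 at 1.76 against 0.06 and −0.09. Only 4 genes were called at more than 1 probe set (Jchain, Kdm5a, Wbp4 and Aff4). Afmid had differences of similar size at its probe sets, 0.60 in the called one and 0.58 and 0.53 in the others (limma adjusted p = 0.247 and 0.171). In most of these genes the call thus rested on 1 probe set. Called genes also span more of the genome, with a median of 49.0 kb (quartiles 26.5 and 102 kb, 65 genes) against 22.8 kb in tested genes (9.56 and 54.7 kb, 11207 genes). The spans were not compared at an equal number of probe sets per gene. The median S signal was 9.18 in called and 9.30 in tested probe sets of RAE230A, and 8.19 and 8.09 on RAE230B.

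**Figure D5:**
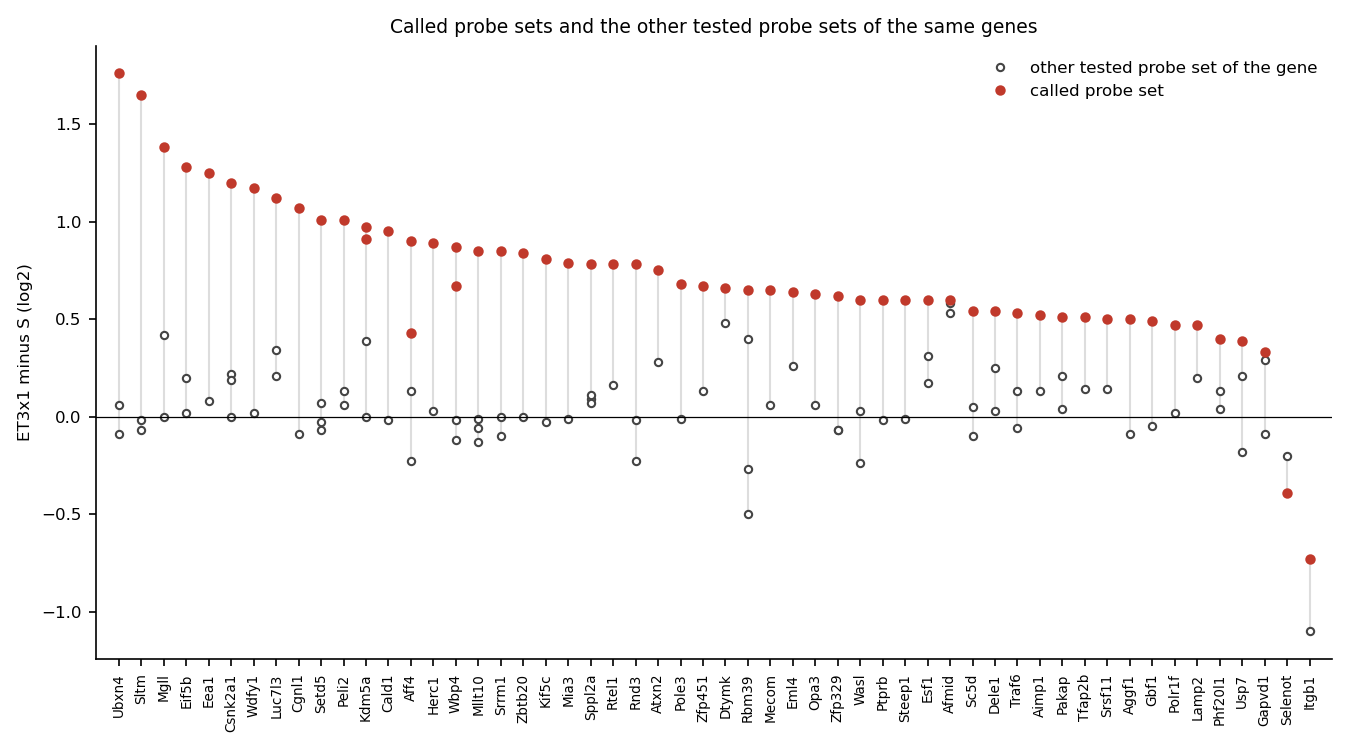
ET3x1 minus S difference (log2, y axis) of the called probe sets (red) and of the other tested probe sets (open circles) of the called genes that have both (x axis, ordered by the highest call). Most open circles lie near 0 below a red point, with a median of 0.03, and Itgb1 has its open circle below the red one, at −1.10.

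Chromosome 3, which carries Edn3, held 9 of the 65 called genes, or 1.05% of its 858 tested genes against 0.579% of all. Chromosome 9 held a higher share, 5 of 437 (1.14%), and chromosomes 2, 13 and 4 held 7 of 714 (0.98%), 3 of 322 (0.932%) and 6 of 655 (0.916%). In their order on chromosome 3 the called genes were Gapvd1, Kif5c, Rnd3, Traf6, Sppl2a, Esf1, Csnk2a1 and Rbm39 before Edn3 and Rtel1 after it. Gapvd1 lies 20.2% of the way along the tested genes, Rbm39 79.5% and Rtel1 98.4%, and the nearest, Rtel1, is 108 annotated genes from Edn3. Of the 42 tested genes beyond Edn3, Rtel1 was the 1 called. Rtel1 encodes a helicase that guards telomeres and replication forks. It read 8.01, 7.98, 7.94 and 8.01 in S, 8.88, 8.75, 8.73 and 8.69 in ET3x1 and 8.62, 8.75, 8.76 and 8.79 in ET3x2. The S pools spread over 0.07 and the gap to the lowest ET3x1 pool was 0.69. Rtel1 rose by 0.78 (SE 0.067, 1.72-fold, adjusted p = 3.36e-05), the lowest adjusted p of any named gene. Its ET3x1 minus ET3x2 difference was 0.03 (adjusted p = 0.858), while that of ET3x2 minus S was 0.75 (adjusted p = 5.86e-05), and both of the strains are compared with the same S pools. A second Rtel1 probe set, 1391964_at, stood at 0.16 (adjusted p = 0.403). Probe sequences were not analysed here.

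The genes nearest to Edn3 did not differ past the threshold. Of the 10 tested genes on each side, 9 were positive and 11 negative, with a median of −0.01. Npepl1 was highest at 0.26 (SE 0.10, adjusted p = 0.290). Lama5, a laminin chain of the glomerular basement membrane, and Gnas, the stimulatory G protein subunit, were lowest, both at −0.28 (adjusted p = 0.231 and 0.281).

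A direct test compared ET3x1 with ET3x2. The calls against S were chosen for ET3x1 values that this test uses again, which favours a pass. ET3x1 against ET3x2 called 323 of 21799 probe sets (1.48%), and ET3x2 against S called 75 (0.344%). Averaged over the 94 probe sets called higher, the ET3x1 pools stood 0.87, 0.75, 0.95 and 0.81 above the S mean (E to H), the S pools between −0.13 and 0.11 and the ET3x2 pools between 0.06 and 0.16. This average describes the chosen probe sets and tests nothing. By the direct test Cgnl1, Setd5, Luc7l3, Eif5b, Kdm5a, Eea1 and Sltm differed between the congenic strains. So did Csnk2a1 (1.96, adjusted p = 0.000177), Mgll (1.80, 0.00124) and Rnd3 (1.31, 0.000118). For Csnk2a1, Mgll and Rnd3, ET3x2 minus S was −0.77, −0.42 and −0.53, and none was called (adjusted p = 0.159, 0.489 and 0.108). For Rtel1, Jchain, Ccl5, Itgb1 and Selenot the direct test did not pass. Ccl5, Itgb1 and Selenot were not called in ET3x2 against S either (limma adjusted p = 0.173, 0.386 and 0.16). A failed direct test thus does not show a difference shared by both congenic strains. The probe sets without a symbol held both passes and failures of the direct test. Probe set 1377774_at read 9.30, 8.93, 9.42 and 9.46 in S, 10.48, 10.46, 10.36 and 10.30 in ET3x1 and 8.95, 8.65, 8.71 and 8.44 in ET3x2, so ET3x1 stood highest and ET3x2 lowest (ET3x1 minus S 1.12, adjusted p = 0.000594, and minus ET3x2 1.71, adjusted p = 2.16e-05). Probe set 1378249_x_at read 10.68, 10.86, 10.81 and 10.97 in S and 11.27, 11.36, 11.43 and 11.44 in ET3x1 and rose by 0.55 (adjusted p = 0.00611), with ET3x2 at the same mean of 11.38.

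The remaining probe sets without 1 symbol that were called in all 8 fits were all higher. Probe set 1373053_at read 10.24, 9.91, 10.18 and 10.38 in S and 11.33, 11.53, 10.90 and 11.36 in ET3x1 and rose by 1.10 (adjusted p = 0.00107). Probe set 1381244_at read 8.70, 8.71, 8.85 and 8.60 and 9.44, 9.18, 9.34 and 9.44 and rose by 0.63 (adjusted p = 0.000847). These 2 also exceeded ET3x2, by 1.30 and 0.50 (adjusted p = 0.000203 and 0.00226). For 1381916_at the pools read 7.71, 7.72, 7.76 and 7.78 in S and 8.08, 8.19, 8.21 and 8.21 in ET3x1, for 1385893_at 8.68, 8.56, 8.87 and 8.82 and 9.43, 9.34, 9.19 and 9.53, and for 1392813_at 10.62, 10.58, 10.75 and 10.67 and 11.19, 11.10, 11.13 and 11.06, rises of 0.43, 0.64 and 0.46 (adjusted p = 0.0043, 0.00715 and 0.0103). Among those with several symbols, 1392936_at read 9.06, 8.96, 8.98 and 8.71 and 9.71, 9.70, 9.64 and 9.43 and 1376861_at 9.45, 9.40, 9.58 and 9.50 and 10.18, 10.07, 10.28 and 10.17, and both rose by 0.69 (adjusted p = 0.0036 and 0.00916). Of all calls 28.1% lacked 1 symbol, close to the 30.7% of tested probe sets.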

How the data were processed

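Total RNA of left kidneys was pooled within strain, copied from an oligo(dT) primer, labelled with biotin and hybridised to the arrays RAE230A and RAE230B, per the labels' protocols. The deposited values were taken as log2 signal from their range (4.97 to 15.24 and 4.10 to 14.28). How the authors summarised and normalised them is not given in the sources used here, so fold changes carry that unknown. No further scaling was applied. The 57 control probe sets of each array and those under its 30th percentile (7.52 and 6.85) were left out.

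All 12 pools of each array entered 1 limma fit (version 3.58.1, trended eBayes, R 4.3.3), tested on simulated data, with no covariate. P-values are two-sided, adjusted by Benjamini-Hochberg within array and contrast, with a threshold of 0.05. Errors are SE of the fit or SD over 4 pools. The labels do not say whether pools came from separate litters. Pool letters are not shared between strains. A gene's list value is its brightest probe set, from RAE230A where on both. Values named in every pool are calls kept without each of pools A to H, the rest are calls with 1 symbol, all lower calls, list extremes and the genes beside Edn3. The members, lists and alternatives were chosen with earlier results of these data known. A further gene list is not reported here.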

Additional observations from a re-analysis of the deposited data

Results flagged for a closer look

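In 5 of the 192 groups of 4 pools behind the called probe sets, 1 pool stood far from the others of its group by Dixon's test, where chance flags about 1 in 20 groups. ET3x1 pool G was low for 1388272_at (11.74 against 12.60 to 12.73) and high for Mia3 (7.83 against 7.28 to 7.34). ET3x1 pool H was high for Phf20l1 (9.88 against 9.57 to 9.62). S pool A was high for Dele1 (10.34 against 10.08 to 10.09) and S pool C for Peli2 (9.0 against 8.33 to 8.43).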

How the results depend on the processing

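The count of 96 calls between ET3x1 and S became 51 (48 higher, 3 lower) in a fit of the 8 pools of S and ET3x1 alone, 164 (159 higher, 5 lower) with estimated array weights and 215 (208 higher, 7 lower) with the actin 5' minus 3' signal as a covariate. It ran from 41 to 88 over the fits that leave out 1 of pools A to H. Other settings gave 80 to 117. The fit of the 8 pools alone kept 46 of the 96 calls and lost 50. The count of 323 between ET3x1 and ET3x2 became 1658 (944 higher, 714 lower) with array weights and 502 (452 higher, 50 lower) with the actin covariate. It was 146 to 488 leaving out 1 of pools A to H (146 without E, 197 without G, 488 without F). No ET3x2 pool was left out on its own, so how far the 323 rest on 1 ET3x2 pool was not measured. The cause of these changes was not tested. Of the 96, 32 probe sets were called in every alternative that tested them, Rtel1, Cgnl1, Setd5, Luc7l3, Eif5b and Jchain among them. The 50th percentile filter left out 18 of the 96. The median over all tested probe sets stayed between −0.017 and 0.011. No paired analysis was possible because the pools of the strains carry different letters. With 4 pools a group, the smallest differences called were near 0.33, and dim probe sets rest on a background that is unknown.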
